A study of Mus musculus with 8 samples.

Results

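Collagens are secreted or membrane-bound proteins whose chains wind into triple helices. Fibril-forming types give connective tissue its tensile strength, the type IV network is the scaffold of the basement membrane under every epithelium, and types VI, VII and XVIII link that membrane to its surroundings. Most types are built from several different chains, so which chain genes a cell transcribes limits which trimers it can assemble. The 43 collagen genes described here are all rows, among 23337 gene symbols, whose name is Col, a number, the letter a and a number. Of these, 20 reached 10 normalized counts in 4 or more of the 8 libraries and were tested, and 23 were silent or near silent.

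The values come from RNA sequencing of MOE cells, a murine oviductal epithelial line of strain FVB, whose tissue of origin is the mouse counterpart of the fallopian tube. After trypsin collection at confluence, cells spent 6 h on either 2D collagen or 3D collagen gels, 4 libraries each, in MOE medium lacking EGF. Both groups therefore touched collagen and differ in its form. The series belongs to work on how tumours that start in the fallopian tube spread to the ovary, and the comparison shows which transcripts differ between both forms. All libraries derive from 1 line, and nothing in the labels says that replicates are separate cultures, so the spread behind each p-value is that of these 8 libraries and may be technical. Levels are normalized counts, which are reads divided by 1 size factor per library. In bulk RNA, fewer cells of a kind and less RNA per cell cannot be told apart.

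Depth was 15692699 to 25862036 reads per library. The keratins Krt7, Krt8, Krt18 and Krt19 and the oviductal regulator Pax8 were abundant in every library. Krt8 was lower on 3D collagen, at 20133 ± 3079 against 34270 ± 5557 normalized counts (log2 fold change −0.76, adjusted p = 0.0397 in limma, and 0.0510 without both libraries numbered 4). Krt7 and Krt18 did not overlap between groups, both lower on 3D collagen, where 18.4% of all tested genes did not overlap, 10.4% lower. Neither passed in limma (adjusted p = 0.183 and 0.136), while DESeq2 called Krt8 and Krt18 (13.4% of all genes). Epcam stayed at or below 29.9 normalized counts and Cdh1 at or below 104, both low for epithelial adhesion genes, and the oviductal glycoprotein Ovgp1 reached at most 27.2. Fibroblast markers summed over 8 genes to 23.3 to 311 on 2D and 40.2 to 314 on 3D collagen with Fap at 0 in every library and Lum and Thy1 at or below 2.39. In that list Dcn ranged from 3.68 to 299 on 2D and from 13.7 to 274 on 3D collagen, and Pdgfra rose, with 2.37 to 7.35 on 2D and 14.9 to 19.3 on 3D collagen (adjusted p = 0.0340 in limma, and 0.0517 without both libraries numbered 4). The part of these markers in the collagen results was not tested. The libraries numbered 4 stood apart in both groups for many collagen genes, as given below, so results that rest on them are given with and without them. Leaving out libraries that stand apart in the same genes narrows the spread, so the p-values without them may be too small. Over all tested genes, 2D replicate 2 stood furthest out on the first principal component, the axis of widest spread between libraries (48.3% of the variance). Its score was 101.9, beside −58.0 to 14.2 for the other libraries. That library also had the highest Col18a1 and Col4a2 counts. Without it limma called 0 collagen genes, the same count as with all 8 libraries.

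Collagen mRNA in these cells was mostly Col18a1, the chain of the basement membrane proteoglycan that releases endostatin. Behind it came a group of type VI, type IV and type V chains, while the interstitial fibril chains Col1a1, Col1a2 and Col3a1 were low or near silent. Per kilobase of the longest annotated transcript, Col18a1 stood at 7286 ± 1870 normalized counts on 2D collagen (SD, n = 4), and the next, Col6a1, at 1119 ± 394. None of the 20 tested collagen genes passed an adjusted p of 0.05 in limma, a test fitted across all 11820 genes with p-values adjusted by the Benjamini-Hochberg method. Over all tested genes 5.72% passed, 2.33% with higher values and 3.39% with lower values on 3D. At an unadjusted p under 0.05, 1 collagen gene was found, Col18a1, where 24.2% of all genes were. edgeR on the recovered reads called 0 collagen genes (5.73% of all genes, 3.12% lower), and DESeq2 called 1, Col18a1 (13.4% of all genes, 7.37% lower). Log2 fold changes were below 0 for 15 of the 20 genes and above 0 for 5, with a median of −0.20 beside 0.02 over all genes tested.

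**Figure D1:**
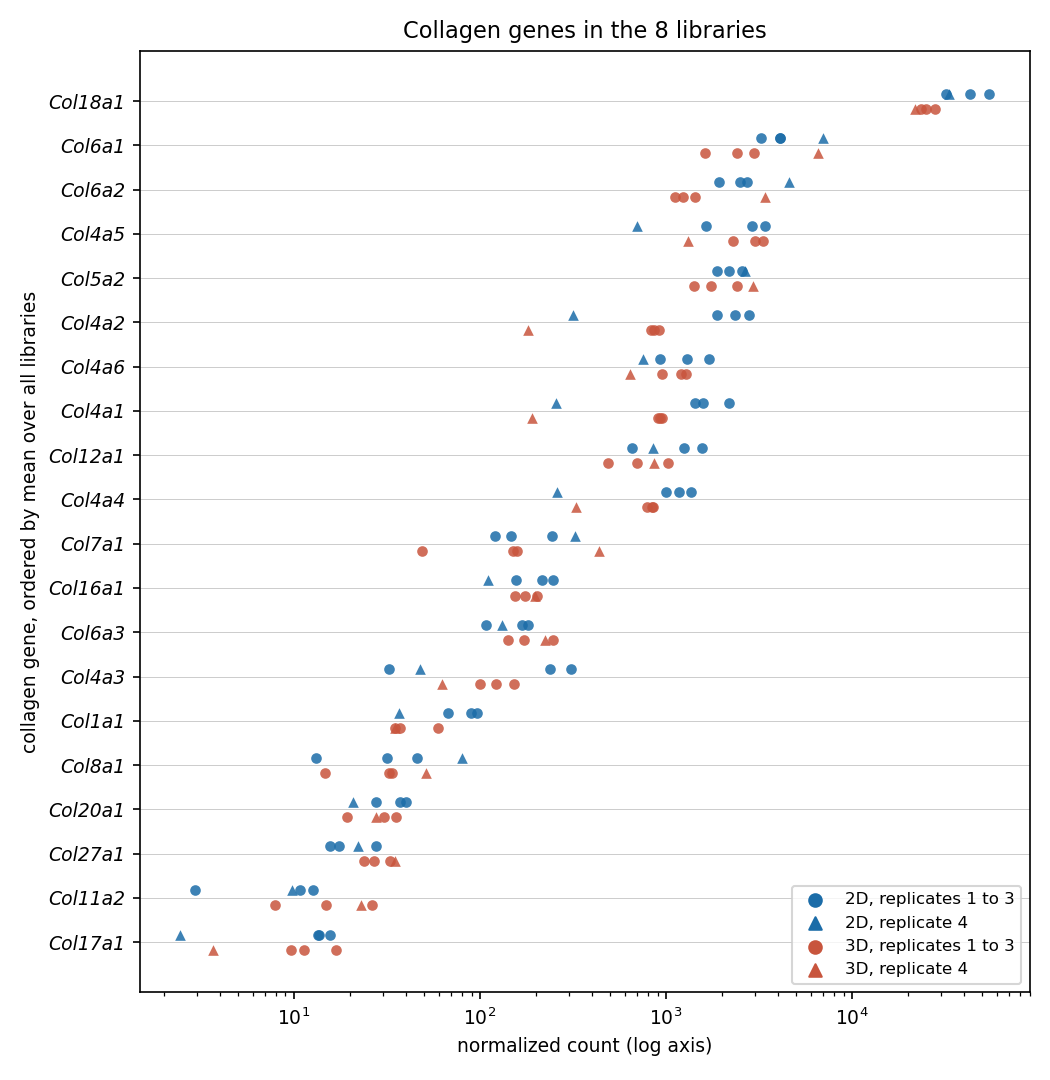
Normalized counts (log axis) of the 20 tested collagen genes in each library, 2D in blue and 3D in red, with the libraries numbered 4 as triangles. Col18a1 lies above every other collagen gene, and its 3D values, 21764 to 27959, lie below its 2D values, 32040 to 54616.

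Col18a1 (chromosome 10, 77052178 to 77166548, mm10) measured 32040, 54616, 43068 and 33334 normalized counts in 2D replicates 1 to 4. In 3D replicates 1 to 4 it measured 27959, 23545, 24896 and 21764. Every 3D library lay below every 2D library, and 2D replicate 2 was the highest. The means were 40765 ± 10464 and 24541 ± 2615 (SD, n = 4 each), a log2 fold change of −0.70 (SE 0.20, 95% interval −1.15 to −0.25). That difference missed the threshold in limma (adjusted p = 0.0711) and passed it in DESeq2 (adjusted p = 0.0104) and in limma once a trend with GC content was removed (adjusted p = 0.0373, log2 fold change −0.48). In that GC-corrected fit, 9.28% of all genes passed, 5.17% lower. Col18a1 was the only tested collagen gene whose groups did not overlap, where 18.4% of all tested genes did not overlap, 8.05% higher and 10.4% lower. Its reads made up 64.8% to 73.1% of all collagen reads on 2D and 55.3% to 69.5% on 3D collagen. Among all genes in a library, Col18a1 ranked 37 to 56 by count on 2D and 62 to 70 on 3D collagen. All collagen genes together took 0.256% to 0.318% of the reads on 2D and 0.202% to 0.234% on 3D collagen. These sums are given without a test, as Col18a1 dominates them.

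The 6 chains of type IV collagen, the sheet-forming collagen of basement membranes, were all transcribed. Their genes lie in 3 head-to-head pairs that start back to back on opposite strands. Annotated starts lie 21 bases apart for Col4a1 and Col4a2 on chromosome 8, where the transcripts overlap by their first bases. For Col4a4 and Col4a3 on chromosome 1 the distance is 72 bases, and for Col4a6 and Col4a5 on chromosome X it is 1309 bases. The RefSeq windows (GRCm38.p6) from 250 bases before to 50 after the start of the minus-strand gene of each pair are shown because both genes of a pair are read from this stretch, or from close to it. Capitals mark GGGCGG and CCAAT on either strand, the letters bound by Sp1-type and NF-Y-type factors, and no TATAAA was found in these 3 windows. The windows are chr8:11312777-11313076, chr1:82586800-82587099 and chrX:141474027-141474326, each on the minus strand.
Col4a1: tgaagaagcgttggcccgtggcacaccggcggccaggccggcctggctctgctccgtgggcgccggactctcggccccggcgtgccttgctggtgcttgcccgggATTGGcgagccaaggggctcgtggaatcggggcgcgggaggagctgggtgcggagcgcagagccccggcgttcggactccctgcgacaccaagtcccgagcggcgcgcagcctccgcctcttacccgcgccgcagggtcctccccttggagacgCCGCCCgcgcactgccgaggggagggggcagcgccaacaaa
Col4a4: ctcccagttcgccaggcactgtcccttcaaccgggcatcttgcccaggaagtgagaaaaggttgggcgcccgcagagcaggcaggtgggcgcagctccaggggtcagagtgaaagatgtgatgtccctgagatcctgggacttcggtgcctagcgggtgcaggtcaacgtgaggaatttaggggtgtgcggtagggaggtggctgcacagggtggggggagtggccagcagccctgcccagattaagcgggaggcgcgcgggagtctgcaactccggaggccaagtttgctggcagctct
Col4a6: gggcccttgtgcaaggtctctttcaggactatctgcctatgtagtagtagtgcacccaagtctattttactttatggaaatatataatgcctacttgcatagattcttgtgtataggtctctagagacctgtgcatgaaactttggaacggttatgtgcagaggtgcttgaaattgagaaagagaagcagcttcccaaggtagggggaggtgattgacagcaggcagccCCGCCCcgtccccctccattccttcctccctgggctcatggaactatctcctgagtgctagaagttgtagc
GC content falls from 74.0% in the Col4a1 window to 63.3% for Col4a4 and 48.3% for Col4a6. The first 2 windows also hold the start of the partner gene. GGGCGG occurred once in the Col4a1 and Col4a6 windows and CCAAT once in the Col4a1 window. Of the 38 windows found for 35 collagen genes, 60.5% held GGGCGG, 34.2% CCAAT and 13.2% TATAAA, beside 35.7%, 37.4% and 13.6% of all 32851 windows, both strands searched. The CArG box of serum response factor was found in 1 of the 38 collagen windows, that of the near-silent Col6a4, and in 1.63% of all windows. A match is a description of letters only.

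Col4a1 (chromosome 8, 11198423 to 11312826), which encodes the α1 chain of the ubiquitous type IV trimer, measured 1575, 1425, 2173 and 255 normalized counts in 2D replicates 1 to 4. It measured 949, 909, 923 and 190 in 3D replicates 1 to 4. Replicate 4 was far below the others in both groups, so the groups overlap, and the 3 other 3D libraries all lie below the 3 other 2D libraries. Over all 8 libraries the log2 fold change was −0.76 with SE 0.73 (adjusted p = 0.570 in limma). Without both libraries numbered 4, Col4a1 fell from 1725 ± 396 to 927 ± 20.4 (SD, n = 3 each), a log2 fold change of −0.87 with SE 0.19 (adjusted p = 0.0482 in limma).

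Col4a2 (chromosome 8, 11312805 to 11449287) encodes the α2 chain that joins 2 α1 chains in that trimer. It measured 1877, 2793, 2351 and 316 normalized counts on 2D collagen and 862, 913, 827 and 182 on 3D collagen, in replicate order. Again replicate 4 was the lowest in both groups, and the remaining 3D values lie below the remaining 2D values. With all libraries the log2 fold change was −1.26 with SE 0.75 (adjusted p = 0.339 in limma). Leaving out both libraries numbered 4, it fell from 2340 ± 458 to 867 ± 43.6, a log2 fold change of −1.41 with SE 0.18 (adjusted p = 0.00955 in limma). In this fit 3 of the 20 collagen genes passed, Col4a1, Col4a2 and Col6a2, all lower, where 3.78% of all genes passed and 2.34% did so in the lower direction. edgeR on the same 6 libraries called the same 3 genes (4.06% of all genes, 2.58% lower). A fit of all 8 libraries with the replicate number as a block called them too (11.9% of all genes, 6.28% lower). Of 5 smooth muscle markers, 3 were tested, as Myh11 and Des were below the level limit. Without both libraries numbered 4, Acta2 and Tagln were lower on 3D collagen (log2 fold changes −1.15 and −1.13, adjusted p = 0.0491 and 0.0368 in limma). In that fit Cnn1 did not pass (log2 fold change −1.13, adjusted p = 0.0854). Over all 8 libraries neither Acta2 nor Tagln passed (adjusted p = 0.256 and 0.276 in limma). Both were lowest of each group in the libraries numbered 4, like Col4a1 and Col4a2, while Col6a2 was highest there. Of the Tagln exons, 62.4% lie under an antisense gene model. The part of these markers in the collagen result was not tested.

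The ratio of Col4a2 to Col4a1, in which any scaling of a library cancels, was 1.19, 1.96, 1.08 and 1.24 in the 2D libraries. In the 3D libraries it was 0.908, 1.00, 0.896 and 0.957. Both libraries numbered 4 kept to their group in this ratio, although both chains were low in them. The other chain ratios computed all overlapped between groups. They were Col4a4 over Col4a3, Col4a5 over Col4a6, Col6a1 over Col6a2, Col6a2 over Col6a3 and Col6a1 over Col6a3. The ratio of Col4a2 to Col4a1 was chosen after its values were seen and is given without a test.

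The other type IV chains serve more specialised membranes, α3 and α4 with α5 in kidney and lung, α5 with α6 in skin and smooth muscle. Col4a4 measured 993, 1179, 1364 and 260 normalized counts on 2D and 793, 836, 848 and 329 on 3D collagen. Replicate 4 was the lowest in both groups here too, and its 2D value lay below its 3D value. The log2 fold change of Col4a4 was −0.29 with SE 0.53 (adjusted p = 0.782 in limma), and −0.50 (SE 0.17, adjusted p = 0.141) without both libraries numbered 4. Col4a3 ranged from 32.3 to 310 on 2D and 62.2 to 153 on 3D collagen, with 2D replicate 2 lowest, and its log2 fold change had a 95% interval from −1.61 to 1.61 (adjusted p = 1.00 in limma). Of its exons, 5.65% lie under an antisense gene model, and counts with unknown strand setting cannot tell both apart.

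Col4a5 (chromosome X) measured 1643, 3396, 2887 and 701 normalized counts on 2D and 3020, 3313, 2292 and 1315 on 3D collagen, and its partner Col4a6 ranged from 753 to 1700 and from 639 to 1272. The groups overlapped for both, with log2 fold changes of 0.35 (95% interval −0.75 to 1.46) and −0.18 (95% interval −0.85 to 0.48). Per kilobase of the longest annotated transcript, Col4a5 stood at 330 ± 186 normalized counts on 2D and 380 ± 136 on 3D collagen (SD, n = 4). On the same scale Col4a1 stood at 205 ± 121 and 112 ± 55.7, and Col4a2 at 284 ± 167 and 108 ± 53.4. On 2D collagen the ranges of these 3 chains overlapped. On 3D collagen Col4a5, at 201 to 507 per kilobase, lay above Col4a1, at 28.8 to 143, and Col4a2, at 28.2 to 142, in every library, and the ranges of Col4a1 and Col4a2 overlapped. Col4a6, at 96.2 to 191 on 3D collagen, overlapped with Col4a1 and Col4a2 and lay below Col4a5. Col4a4 stood at 93.9 ± 47.8 and 69.4 ± 24.7, and Col4a3 was the lowest chain on average, at 18.4 ± 16.2 and 12.8 ± 4.46.

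**Figure D2:**
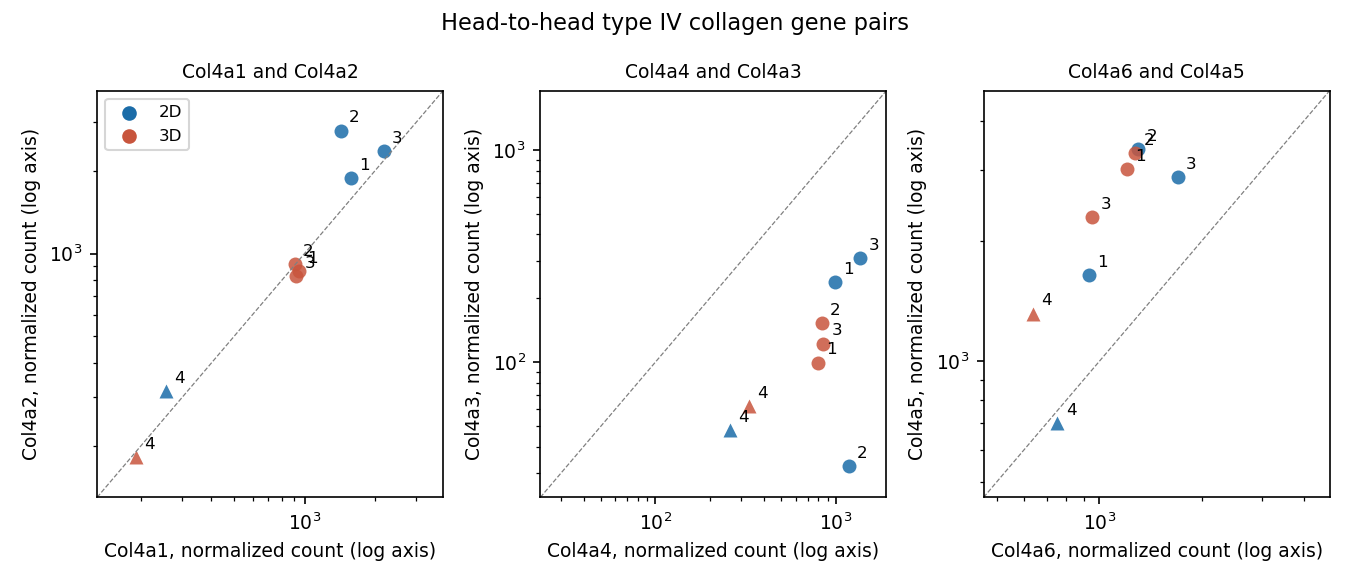
Normalized counts (log axes) of the 3 head-to-head type IV pairs, 1 point per library, labelled with its replicate number, 2D in blue, 3D in red, dashed line at equal counts. In the Col4a1 and Col4a2 panel the 2D libraries lie above the line, with ratios of 1.08 to 1.96, and the 3D libraries on or near it, with ratios of 0.896 to 1.00, while both libraries numbered 4 sit at the lower left.

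Type VI collagen forms beaded microfilaments next to basement membranes and needs α1, α2 and α3 chains in each monomer. Col6a1 (chromosome 10, 76708792 to 76726168) measured 4113, 3234, 4074 and 6937 normalized counts on 2D and 1612, 2391, 2977 and 6589 on 3D collagen. Col6a2, its neighbour on chromosome 10 (76595762 to 76623630), measured 1935, 2723, 2496 and 4558 on 2D and 1232, 1111, 1428 and 3423 on 3D collagen. For both genes replicate 4 was the highest of its group, the reverse of the type IV chains other than Col4a3, and the other 3D libraries lay below all 2D libraries. The log2 fold change of Col6a2 was −0.79 with SE 0.38 (adjusted p = 0.241 in limma), and −0.92 (SE 0.19, adjusted p = 0.0412) without both libraries numbered 4, when it fell from 2385 ± 406 to 1257 ± 160 (SD, n = 3 each). That of Col6a1 was −0.58 (SE 0.41, limma adjusted p = 0.425) and −0.75 (SE 0.24, adjusted p = 0.135).

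Col6a3, whose long α3 chain completes the type VI monomer, was far lower than its partners, at 147 ± 34.0 normalized counts on 2D and 195 ± 47.5 on 3D collagen. Per kilobase it stood at 14.5 ± 3.36 on 2D collagen, beside 1119 ± 394 for Col6a1 and 596 ± 231 for Col6a2. Its log2 fold change was 0.41 (95% interval −0.20 to 1.01, limma adjusted p = 0.395), so the 3 chains did not share a sign. The alternative chains Col6a4, Col6a5 and Col6a6 had at most 2 reads in any library.

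Unequal chain levels recurred in other types. Col5a2 (chromosome 1, 45374321 to 45503282) encodes the α2 chain of type V collagen, a fibril-nucleating heterotrimer that contains the product of Col5a1. It measured 1872, 2566, 2179 and 2641 normalized counts on 2D and 1421, 2417, 1735 and 2931 on 3D collagen. The groups overlapped throughout, with a log2 fold change of −0.17 (95% interval −0.69 to 0.36, limma adjusted p = 0.714). Its partners Col5a1 and Col5a3 had 7 and 5 reads over all 8 libraries together. Per kilobase Col5a2 stood at 349 ± 54.0 on 2D collagen, and Col5a1 and Col5a3 averaged 0.179 and 0.186.

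Col1a1, the major chain of bone and tendon collagen, measured 67.2, 96.8, 89.4 and 36.8 normalized counts on 2D and 35.1, 59.4, 37.3 and 34.8 on 3D collagen. Replicate 4 brought the 2D range down into the 3D range, and the log2 fold change was −0.73 with SE 0.36 (adjusted p = 0.253 in limma). Col1a2, its partner in type I collagen, had 24 reads over all libraries, 11 of them in 2D replicate 2. Col8a1, the short chain of Descemet's membrane, ranged from 13.1 to 79.7 on 2D and from 14.7 to 51.2 on 3D collagen, and its partner Col8a2 had 1 read in all. The log2 fold change of Col8a1 was −0.22 (95% interval −1.48 to 1.04).

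**Figure D3:**
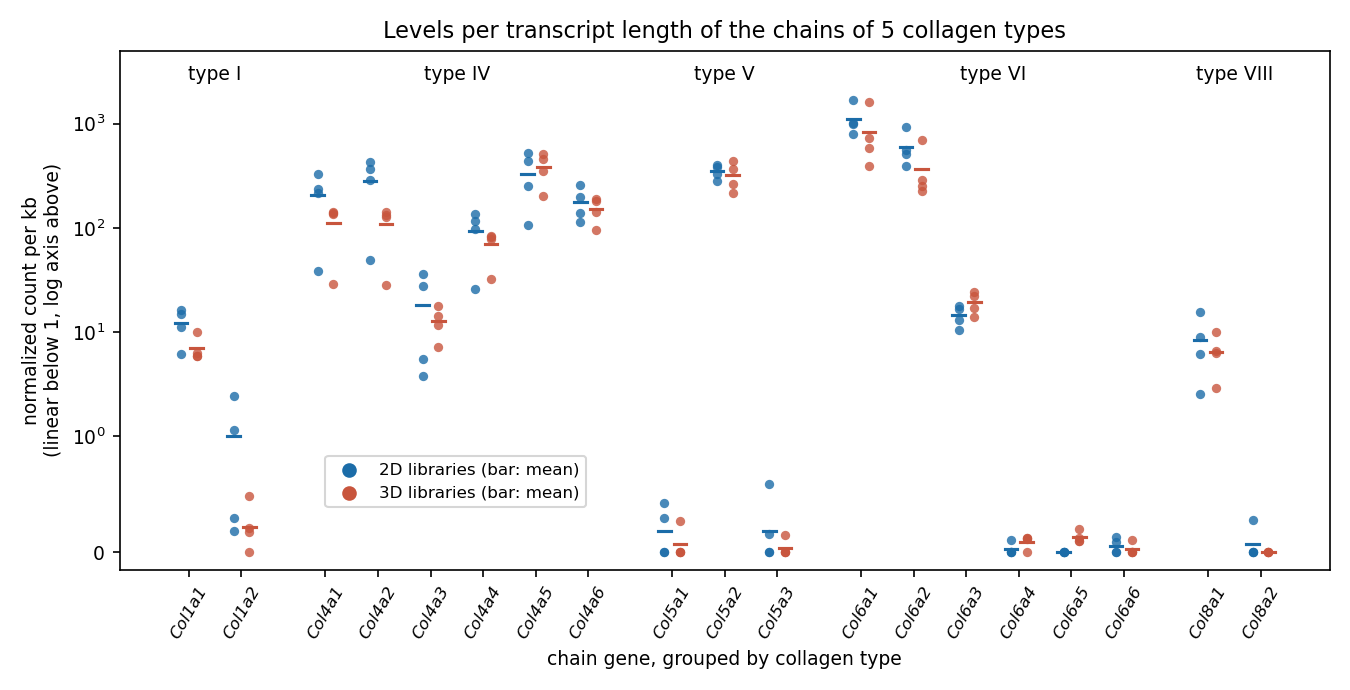
Normalized counts per kilobase of longest transcript (linear below 1, log above) for the chains of collagen types I, IV, V, VI and VIII, 1 point per library and a bar at the group mean, 2D in blue and 3D in red. All 6 type IV chains are present, while Col5a1 and Col5a3 (0.179 and 0.186 on 2D) lie far below Col5a2 (349), and Col6a3 (14.5) below Col6a1 (1119) and Col6a2 (596).

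The collagens that attach fibrils or membranes to their neighbours were present at middle to low levels. Col12a1, a fibril-associated collagen, lay between 658 and 1564 normalized counts on 2D and between 486 and 1020 on 3D collagen (log2 fold change −0.47, 95% interval −1.17 to 0.23). Col16a1, of the same class, averaged 182 in both groups, and its log2 fold change of 0.06 had an interval from −0.57 to 0.69. Col20a1, also of this class, was at 31.4 ± 8.75 and 28.2 ± 6.82, with a 95% interval from −0.87 to 0.59 for its log2 fold change. Col7a1, the anchoring fibril that ties epithelial basement membrane to stroma, measured 121, 245, 146 and 325 on 2D and 48.7, 157, 150 and 435 on 3D collagen. For Col7a1, as for Col6a1 and Col6a2, the highest library of each group was replicate 4, and the 95% interval of its log2 fold change, −1.73 to 1.00, spans 0.

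Col17a1, the transmembrane collagen of hemidesmosomes, was just inside the level limit, at 13.6, 15.5, 13.4 and 2.45 normalized counts on 2D and 11.3, 9.60, 16.8 and 3.66 on 3D collagen. Both libraries numbered 4 were its lowest, and its log2 fold change was −0.04 (95% interval −1.40 to 1.33). Col11a2, a minor fibril chain of cartilage, also just passed, with 2.92 to 12.7 on 2D and 7.93 to 26.1 on 3D collagen and the largest positive log2 fold change of the 20, 0.94 (95% interval −0.22 to 2.10, limma adjusted p = 0.303). Col27a1, a fibrillar chain, lay between 15.6 and 27.5 and between 23.8 and 34.8 (log2 fold change 0.52, 95% interval −0.16 to 1.19). Just outside the limit were Col2a1, the main cartilage collagen, and Col11a1, which each reached 10 in 3 libraries and had 3 to 18 and 1 to 20 reads per library.

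**Figure D4:**
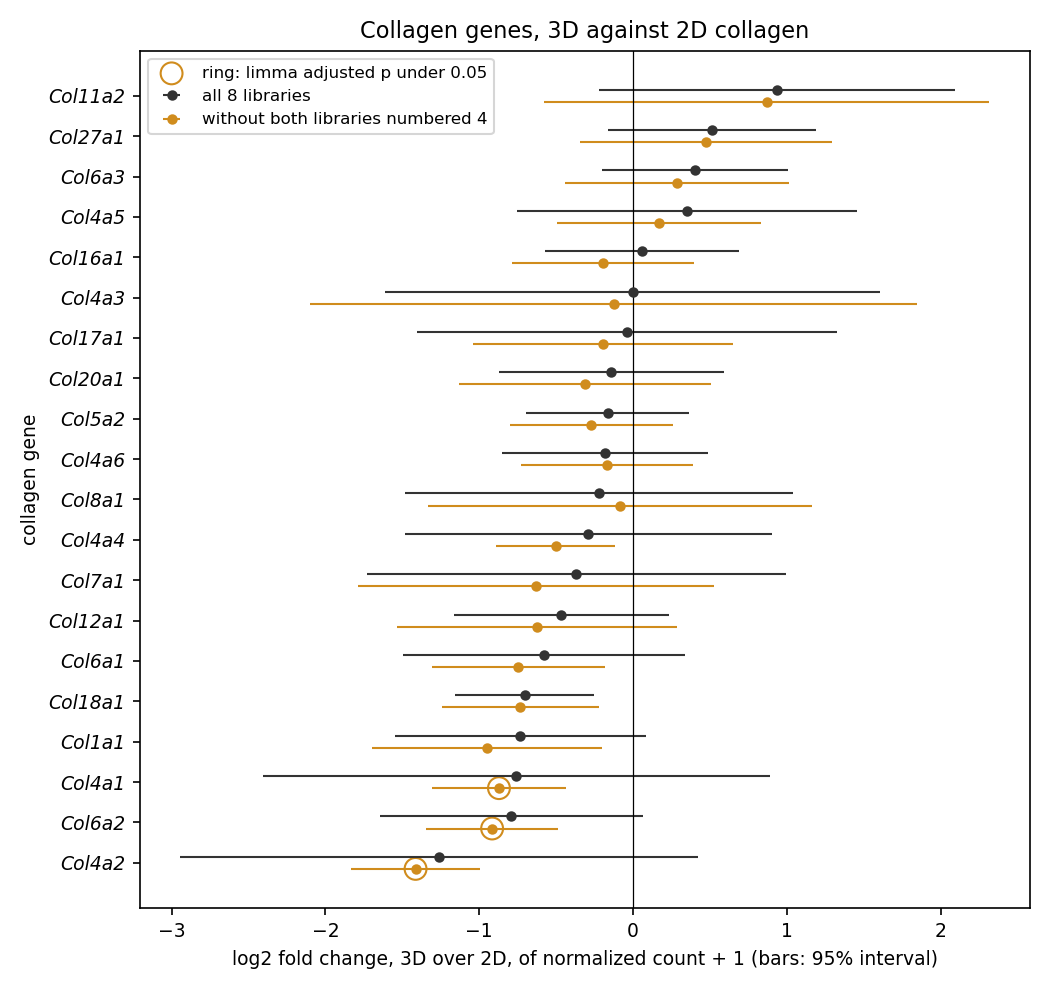
Log2 fold change, 3D over 2D, of the 20 tested collagen genes with 95% intervals, over all 8 libraries in black and without both libraries numbered 4 in orange, and rings where the limma adjusted p is under 0.05. The orange intervals of Col4a1, Col4a2, Col4a4 and Col6a2 are much narrower than the black ones, and the 3 rings are on Col4a1 (−0.87), Col4a2 (−1.41) and Col6a2 (−0.92).

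The 23 collagen genes below the limit include most fibril, cartilage and neuronal collagens. Col9a1, Col19a1, Col24a1 and Col25a1 had no read in any library, which at these depths allows up to 2.37 to 3.68 normalized counts (3 reads per library, counting error only). Col8a2, Col10a1 and Col13a1 had 1 read each in all, and Col28a1 had 2. Col3a1, the fibrillar partner of type I collagen in soft tissue, had 4 to 11 reads per library and Col15a1, the relative of Col18a1, had 1 to 19. Of the 19 collagen genes below the limit with a read, 3 did not overlap between groups, beside 2.91% of all 4878 such genes. Col22a1 had 1, 3, 4 and 6 reads on 2D and 0, 0, 0 and 1 on 3D collagen, and Col23a1 had 3 or 4 reads on 2D and 0 to 3 on 3D collagen. Col6a5 had no read on 2D collagen and 1 or 2 in each 3D library. Such counts are at the floor of what this depth resolves, and no fold change is given for them.

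Among the 20 tested genes, replicate 4 was the lowest library of both groups for 7, Col1a1, Col4a1, Col4a2, Col4a4, Col4a5, Col4a6 and Col17a1 (35.0%, beside 23.1% of all genes tested). It was the highest of both groups for 5, Col5a2, Col6a1, Col6a2, Col7a1 and Col8a1 (25.0%, beside 17.8%). Without both libraries numbered 4, the groups did not overlap for 7 of the 20, all lower on 3D collagen (35.0%, beside 17.1% lower and 31.9% in either direction over all genes). They were Col1a1, Col4a1, Col4a2, Col4a4, Col6a1, Col6a2 and Col18a1. Sums over 5 smooth muscle markers, mostly Acta2 and Tagln, were lowest of each group in the libraries numbered 4, at 10535 on 2D and 5181 on 3D collagen. Those over 4 mesothelial markers were highest in them, at 21955 and 10558, through Msln, at 20978 and 8928. Upk3b, of the same list, was lowest in them, at 82.1 and 37.5, and Wt1 was lowest in 2D replicate 4 and highest in 3D replicate 4. 2D replicate 4 was also the shallowest library. The part of these in the collagen levels was not tested.

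Genes that modify and fold collagen chains in the endoplasmic reticulum were taken as a list of 22, of which 20 were tested. In limma 0 passed in either direction (5.72% of all genes), with a median log2 fold change of −0.30. At an unadjusted p under 0.05 there were 7 of the 20 (24.2% of all genes), edgeR called 0 (5.73% of all genes) and DESeq2 called 4 (13.4% of all genes). The 4 were Creb3l1, Glt25d1, P4ha1 and Plod3, all with lower means on 3D collagen (limma adjusted p = 0.101, 0.0568, 0.0561 and 0.0565). Mia3 had the largest positive log2 fold change of the list, 0.99 (limma adjusted p = 0.179). These members are named after their values were seen. The most abundant members of the list were the prolyl hydroxylase subunit P4hb and the collagen chaperone Serpinh1. P4hb was at 43433 ± 11256 normalized counts on 2D and 30714 ± 9459 on 3D collagen, and Serpinh1 at 27447 ± 7836 and 18415 ± 3123. Both overlapped between groups (limma adjusted p = 0.268 and 0.180). Of 10 tested genes for trimming and crosslinking, 2 fell and none rose, where 3.39% of all genes were called lower and 2.33% higher. Loxl4, a lysyl oxidase relative that crosslinks collagen, fell from 1380.5 ± 101 to 650 ± 161 (log2 fold change −1.12, limma adjusted p = 0.0161). Bmp1, the protease that removes the C-propeptide of fibrillar procollagens, fell from 2886 ± 592 to 1627 ± 147 (log2 fold change −0.81, limma adjusted p = 0.0318). The Bmp1 call did not survive leaving out 2D replicate 1 or 3 or any 3D library, at adjusted p from 0.0628 to 0.0940.

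Collagen receptors had 6 tested members and 0 passed in limma, at an unadjusted p under 0.05, in edgeR or in DESeq2. Over all genes these shares were 5.72%, 24.2%, 5.73% and 13.4%. The integrin subunit Itgb1 had a log2 fold change of −0.30 and the receptor kinase Ddr1 one of −0.04, and that of Ddr1 was above 0 under both other scalings tried. Of 14 tested basement membrane partners 1 passed in limma (5.72% of all genes), the laminin chain Lamc3, which fell from 44.4 ± 16.2 to 10.5 ± 2.95 normalized counts (log2 fold change −1.95, limma adjusted p = 0.0180) and lost its call without 3D replicate 1, 2 or 3 (adjusted p from 0.0593 to 0.0676). Of its exons, 6.27% lie under an antisense gene model. The abundant laminin chain Lama5 and the collagen-binding protein Sparc had log2 fold changes of −0.87 and −0.49, with adjusted p of 0.0969 and 0.272 in limma. Lama5 passed in DESeq2 (adjusted p = 0.0226). edgeR called 2 of the 14 (5.73% of all genes), Lamc3 and the heparan sulfate proteoglycan Hspg2 (perlecan). DESeq2 called 4 (13.4% of all genes), these and Agrn (agrin) and Lama5, and 6 had an unadjusted p under 0.05 in limma (24.2% of all genes). Hspg2 was at 20920 ± 10617 and 6789 ± 2618 normalized counts, without overlap between groups, and missed the threshold in limma (log2 fold change −1.58, adjusted p = 0.0509). Nid1 went the other way without overlap, at 1523 ± 303 and 2308 ± 564 (log2 fold change 0.59, limma adjusted p = 0.123). Over all tested genes 18.4% did not overlap. Lama3, Lamb1 and Lamc1 also had log2 fold changes above 0 (0.53, 0.16 and 0.13). Hspg2, Agrn and these members above 0 are named here after their values were seen. Of 8 hemidesmosome partners 1 passed in limma (5.72% of all genes), the linker plectin (Plec), which fell from 29469 ± 4154 to 15124 ± 432 (log2 fold change −0.95, limma adjusted p = 0.0107, and 0.0543 without 3D replicate 3), while the tetraspanin Cd151 had a log2 fold change of −0.80 and missed the threshold in limma (adjusted p = 0.0842) and passed it in DESeq2 (adjusted p = 0.0213).

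Of 4 tested collagen-degrading proteases 1 passed in limma (5.72% of all genes), the membrane-bound Mmp15. It fell from 1243 ± 405 to 432 ± 92.1 normalized counts (log2 fold change −1.47, limma adjusted p = 0.0236). That call was lost when 2D replicate 1 or 3, or any of 3D replicates 1 to 3, was left out (adjusted p from 0.0517 to 0.0729). Mmp14, which cleaves fibrillar collagen at the cell surface, and the gelatinase Mmp2 had log2 fold changes of 0.61 and −0.26, neither passing in limma (adjusted p = 0.168 and 0.681). Of 18 genes known to regulate collagen transcription, Srf and Ctgf fell and Sox9 rose, where 5.72% of all genes passed. Sox9, an activator of cartilage collagens, was higher on 3D collagen, 2257 ± 452 against 807 ± 273 (log2 fold change 1.54, limma adjusted p = 0.0197), a call lost without 3D replicate 1, 2 or 3 (adjusted p from 0.0630 to 0.0688). Srf, the factor of the CArG box, and Ctgf, a matricellular growth factor, fell by 1.86 and 2.76 on the log2 scale (limma, adjusted p = 0.00311 and 0.0127), and 23.2% of the Ctgf exons lie under an antisense gene model. Of Sox9's cartilage targets among the collagens, Col2a1 and Col11a1 were below the level limit and Col11a2 did not pass in the main test. Col2a1 had 12, 13, 10 and 7 reads on 2D and 3, 11, 9 and 18 on 3D collagen, in replicate order. Its means were 10.9 ± 3.48 and 9.46 ± 5.38 normalized counts. Col11a1 had 9, 3, 7 and 1 reads on 2D and 20, 14, 16 and 1 on 3D collagen, in the same order. Col11a2 was called higher in limma only with the replicate block and the GC trend removed (adjusted p = 0.0368). The part of Sox9 in these levels was not tested.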

How the data were processed

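RNA of 4 libraries on 2D and 4 on 3D collagen was compared. HTSeq 0.6.1p1, DESeq2 and mm10 are named in the submitters' processing notes. No source used here gives the aligner, annotation or strand setting. What the authors deposited is a signal, read counts per gene divided by 1 size factor per library. In every library 100% of values came out whole, within 0.001 reads, once multiplied by that factor. The main test was limma 3.58.1 (R 4.3.3), trended and robust, on log2(normalized count + 1) over genes at 10 or more in at least 4 libraries, without covariates; this scale understates changes of low genes. edgeR 4.0.16 and DESeq2 1.42.0 on recovered reads, other scalings, pseudocounts and filters, a replicate block, GC correction and left-out libraries were alternatives; edgeR and DESeq2 with the block, and edgeR or the block without both libraries numbered 4, were added after seeing the data. Fits were tested on simulated data. Positions and lengths came from GENCODE M21 (GRCm38, the mm10 build), which matched 22871 symbols. The members and lists were chosen with earlier results of these data known. All tested collagens are named, and of each partner list up to 4 called members with the smallest adjusted p, or, where fewer than 2 passed, its 2 most abundant and any called one.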

Additional observations from a re-analysis of the deposited data

Results flagged for a closer look

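In groups of 4, a library was picked out when its gap to the nearest other exceeded the 95% critical value of Dixon's test. Of 76 groups checked 12 were, where chance gives about 1 in 20. Among the collagens, 3D replicate 4 stood below the others for Col4a1 (190), Col4a2 (182) and Col4a4 (329) and above them for Col6a2 (3423), in normalized counts. 3D replicate 2 was high for Col1a1 (59.4), and 2D replicate 4 was low for Col17a1 (2.45). Among partner genes, 3D replicate 4 was low for Serpinh1 (13755) and Ctgf (1884), and 2D replicate 4 was low for Mmp14 (1547). 2D replicate 1 was high for Itgb1 (23515), and 2D replicate 2 was high for Cd151 (39843) and Srf (5494).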

How the results depend on the processing

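With all 8 libraries and other scalings, pseudocounts or filters in limma, or with edgeR, 0 collagen genes were called. The lower count was 1 (Col18a1) with DESeq2 and with the GC trend removed, 3 without both libraries numbered 4 in limma and in edgeR, and 0 to 0 when any single library was left out; the higher count was then also 0 to 0. The labels do not say whether a replicate number marks a shared batch or day. Deviations of same-numbered libraries correlated at −0.17, 0.37, 0.25 and 0.81 for numbers 1 to 4, and 5 of 8 libraries correlated best with their own number. The main test had no covariates, so the numbers were not taken as pairs in it. The low value for number 1 cannot show that same-numbered libraries share nothing, as number 4 reached 0.81. Fits with the replicate block are therefore given beside the main test. With the replicate block, 3 collagen genes were lower in limma and in edgeR (Col4a1, Col4a2, Col6a2) and 4 in DESeq2. With the replicate block and the GC trend removed, 3 were lower, Col4a2, Col6a2 and Col18a1, and 1, Col11a2, was higher, while the Col4a1 log2 fold change did not pass (adjusted p = 0.0907). With the block but without both libraries numbered 4, 1 was lower (Col4a2). Among the partners named, the block in limma also brought Lama5 (adjusted p = 0.0232), Cd151 (0.0444) and Mmp14 (0.0288) past the threshold. Over all genes, 275 higher and 401 lower became 498 higher with library size scaling, which moved the median log2 fold change of all genes from 0.02 to 0.19. They became 708 and 871 with DESeq2, 663 and 742 with the replicate block, 481 and 605 with the GC trend removed and 995 and 1077 with both. The block gave 718 and 643 in edgeR, 1065 and 1189 in DESeq2 and 77 and 138 without both libraries numbered 4. Without those 2 libraries 171 were higher in limma and 175 in edgeR. Leaving out 1 library gave 44 to 267 higher and 104 to 370 lower, which also leaves fewer libraries to test.

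Some log2 fold changes turned sign. Col4a3 (−0.0012) became 0.037 with TMM scaling, 0.17 with library size scaling and 0.0021 with a pseudocount of 0.5, and lay between −0.55 and 0.52 without single libraries. Library size scaling gave 0.0080 for Col5a2, 0.12 for Col17a1 and 0.028 for Col20a1. Removing the GC trend, with or without the replicate block, gave 0.17 for Col17a1 and 0.053 for Col20a1. Col16a1 became −0.20 without both libraries numbered 4, with or without the block, and −0.22 in edgeR. Without single libraries, Col4a4 lay between −0.83 and 0.039, Col4a5 between −0.11 and 0.65, Col4a6 between −0.37 and 0.023 and Col5a2 between −0.34 and 0.0092. Col7a1 then lay between −0.88 and 0.17, Col8a1 between −0.67 and 0.16, Col16a1 between −0.16 and 0.23, Col17a1 between −0.57 and 0.34 and Col20a1 between −0.31 and 0.026. Ddr1 (−0.04) became 0.0027 with TMM and with the block in edgeR, 0.14 with library size scaling and 0.19 with the GC trend removed, with or without the block, and lay between −0.21 and 0.12 without single libraries. The cause of these changes was not tested. Depth limits the 23 collagen genes below the level limit, which no fit resolves.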
